A study of Mus musculus with 159 samples.

Results

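Interferon-high tumors were the 40 tumors with the highest interferon score, and interferon-low tumors the 40 with the lowest, among 159 mammary tumors. The score was the mean of Oas2, Ifit3, Ifit1, Rsad2 and Irf7 after each gene was standardized over the 159 tumors, so the tumors were selected on the measured values of these 5 genes, which are given as a description, with no test. Isg15, the remaining gene of the rule, lies on a probe set that is also assigned to Gm9706 and was not used. The groups were compared over 18949 other genes, and 79 tumors lay between them.

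All 159 tumors came from female mice of the DO G7 x PyMT cross at about 100 days of age, 1 tumor and 1 array per animal, and no animal was treated. Each animal carried the PyMT transgene, a viral oncogene expressed in the mammary epithelium from the MMTV promoter, on an FVB/NJ set of chromosomes, together with a set that mixes the genomes of the Diversity Outcross founder strains. Both groups therefore shared the transgene. DO genomes vary from animal to animal and were not used here, so whether they differed between the groups was not tested. Values are log2 intensities, a difference of 1 is a doubling, and differences are interferon-high minus interferon-low. Tumors were the replicates, and kinship among the animals was not accounted for.

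Type I interferons signal through the receptor subunits Ifnar1 and Ifnar2 and the kinases Jak1 and Tyk2 to transcription factors that include Stat2 and Irf9 and turn on a large set of interferon-stimulated genes. Interferon gamma signals through Ifngr1 and Ifngr2 and induces an overlapping set that includes the guanylate binding proteins, the immunoproteasome and Cxcl9. In tumors these genes can be expressed by the cancer cells as well as by infiltrating immune cells, and their products act in antiviral defense, antigen presentation and the recruitment of T cells.

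The score ran from 0.874 to 1.85 in interferon-high tumors (median 1.14) and from -2.08 to -0.741 in interferon-low tumors (median -1.14). The last interferon-high tumor had 0.874 and the first tumor outside the group 0.872, and the corresponding values at the other end were -0.741 and -0.722, so the groups are the ends of a range and not separate classes. Oas2, a synthetase that activates the antiviral RNase L, lay between 8.74 and 11.08 (median 9.90) in interferon-high tumors and between 5.86 and 7.97 (median 6.88) in interferon-low tumors. Ifit3, an antiviral gene, lay between 8.60 and 10.79 (median 9.85) in interferon-high tumors. In interferon-low tumors Ifit3 lay between 5.51 and 7.28 (median 6.55). The mean differences were 3.22 for Ifit3, 2.99 for Ifit1, 2.59 for the antiviral enzyme gene Rsad2 and 2.55 for Irf7, a transcription factor that amplifies type I interferon production. The 5 genes followed each other over the 159 tumors, with pairwise correlations between 0.830 and 0.926.

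**Figure D1:**
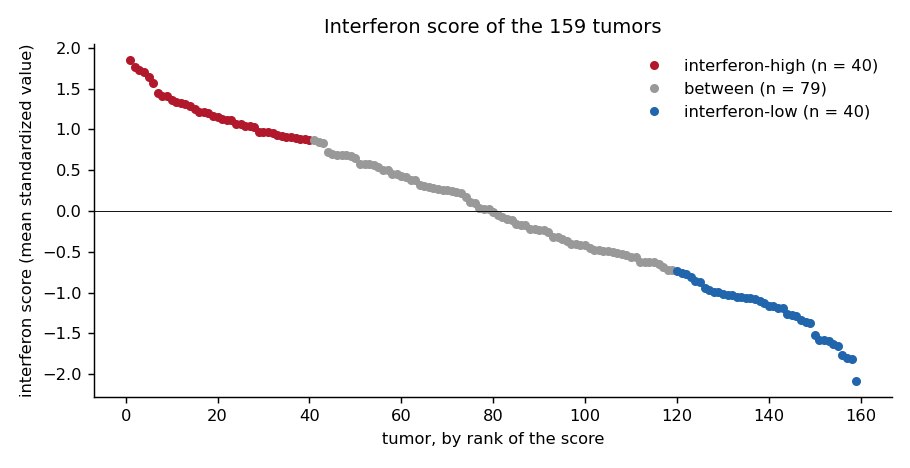
Interferon score of each of the 159 tumors, ordered from the highest to the lowest; red points are the 40 interferon-high tumors, grey points the 79 tumors between and blue points the 40 interferon-low tumors. The score falls without a break at either limit, from 1.85 to -2.08.

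The interferon-stimulated response element is a regulatory site built on repeats of GAAA. RefSeq promoters (build GRCm38.p6, 250 bases before to 50 after each start) were therefore searched for GAAA, any 2 bases and GAAA again, or TTTC, any 2 bases and TTTC for the other strand. Of the 5 score genes, 4 had a promoter entry and 3 of these held a match. Their promoters are shown first. Examples follow from the genes outside the score that were at least 1.5-fold higher in interferon-high tumors and held a match before the start. These examples are in order of their difference but are not a complete ranking. Genes with larger differences than some of them may be left out. Capitals mark the matches, and each sequence runs 5′ to 3′ on the strand of its gene.
Ifit3, chr19:34583343-34583446, plus strand: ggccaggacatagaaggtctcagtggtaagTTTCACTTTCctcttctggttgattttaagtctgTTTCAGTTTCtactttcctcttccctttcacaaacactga
Ifit1, chr19:34640755-34640843, plus strand: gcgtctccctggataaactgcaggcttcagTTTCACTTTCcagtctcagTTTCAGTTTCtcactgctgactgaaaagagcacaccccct
Rsad2, chr12:26456533-26456602, minus strand: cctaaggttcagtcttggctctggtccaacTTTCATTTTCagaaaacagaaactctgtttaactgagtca
Ddx60, chr8:61928004-61928086, plus strand: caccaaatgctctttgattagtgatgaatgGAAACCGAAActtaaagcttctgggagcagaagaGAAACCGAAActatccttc
Trim30a, chr7:104465194-104465259, minus strand: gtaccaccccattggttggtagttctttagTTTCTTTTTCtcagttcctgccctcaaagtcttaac
Oas1a, chr5:120907526-120907575, minus strand: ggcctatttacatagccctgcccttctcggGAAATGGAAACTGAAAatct
Gbp3, chr3:142559969-142560043, plus strand: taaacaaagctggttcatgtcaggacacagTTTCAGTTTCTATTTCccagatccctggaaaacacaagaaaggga
Slfn8, chr11:83020819-83020888, minus strand: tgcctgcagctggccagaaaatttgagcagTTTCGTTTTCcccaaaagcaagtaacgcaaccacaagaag

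Ifit3 and Ifit1 each held a pair of matches and Rsad2 a single one, which began 120 bases before its start. Those of Ddx60 began 53 and 19 bases before its start, while in Oas1a and Gbp3 a pair of matches overlapped, beginning 20 and 14 bases before the start of Oas1a and 45 and 39 bases before that of Gbp3. Ifit3b, a near-identical neighbor of Ifit3 and also among these genes, shares every base of the Ifit3 stretch, so it is not printed again, and its values are uncertain because probes may not tell these copies apart. Irf7, Oasl2 and Irf9 held no match in this window, which says only that these letters were not found there.

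A match was present in 30 of the 77 genes with a promoter entry that were at least 1.5-fold higher in interferon-high tumors (39%), in 37 of 266 genes that rose by less and in 3.54% of the genes that fell. Among all genes with a promoter the share was 3.99% (1079 of 27025), and among the genes tested 3.89%. Of the matching genes, 33.3% held 2 or more matches in the group at least 1.5-fold higher, against 6.67% over all promoters. Of the 15 interferon ligand genes, none of which passed the test, 8 held a match. When C was required after the second copy, 0% of the ligand genes held one, against 26% of the genes at least 1.5-fold higher. These shares describe letters in a window and were not tested.

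Across the 18949 genes, 576 differed between the groups, 432 of them higher (2.28% of all genes) and the others lower (0.76%) in interferon-high tumors, at an adjusted p under 0.05 (limma, Benjamini-Hochberg over all genes). The rises were the larger changes. At least 1.5-fold, 0.549% of genes were higher, 69 of them in the interferon lists and 35 outside, and 1 gene was lower (0.00528%), while 50 genes were at least doubled. In 25 genes (0.132%) every interferon-high tumor lay above every interferon-low tumor. The median difference over all genes was -0.01. Genes higher made up 75% of the calls, but 56.5% after quantile normalization, which called 414 higher and 319 lower. With animal number as a block 415 were higher and 258 lower, and with the T cell, B cell and plasma cell, macrophage and adipocyte scores as covariates 260 were higher; of the genes at least 1.5-fold higher, 97 (93.3%) were again called higher with these covariates.

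Keratins of luminal epithelium were expressed in both groups. Krt18 and Krt19 gave differences of 0.17 and 0.40, and the basal keratins Krt5 and Krt14 gave -0.31 and -0.32, none past the threshold. With the marker scores as covariates Krt18 passed (limma, adjusted p = 0.0304). Krt8 lay between 11.81 and 12.97 (median 12.42) in interferon-high tumors and between 11.16 and 12.72 (median 12.39) in interferon-low tumors, and neither Krt8 nor the epithelial adhesion gene Epcam passed the test. Of the 6 arrays with a low correlation to the others, none was interferon-high and 1 interferon-low, and of 9 tumors that stood apart on T cell or B cell and plasma cell scores, 1 was interferon-high and 1 interferon-low. Without these arrays 459 genes were higher and 191 lower, and without these tumors 457 were higher, 75.5% of the calls. In 5 blocks of animal numbers both groups had at least 5 tumors; a last block held no interferon-high and 2 interferon-low tumors. In bulk tumors a change in the share of a cell type and a change in RNA per cell cannot be told apart.

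No measured interferon gene passed the test. Of the 21 listed ligand genes, Ifna1, Ifna6, Ifna7, Ifna15, Ifnz and Ifnl3 were not measured. All 15 measured ligand genes missed the threshold (limma, 1 at an unadjusted p under 0.05; differences of -0.07 to 0.05, median -0.02), and 11 of them had means at or below the background level of 5.78 set by olfactory, vomeronasal and taste receptor genes. Ifnb1, the interferon beta gene, lay between 5.12 and 5.60 (median 5.39) in interferon-high tumors and between 5.12 and 5.66 (median 5.42) in interferon-low tumors. Ifng, the interferon gamma gene, had a median of 5.79 in interferon-high and 5.81 in interferon-low tumors. Further above background, Ifnl2 had medians of 8.74 in interferon-high and 8.85 in interferon-low tumors, and Ifna5 of 7.49 and 7.51.

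The receptors were well above background and likewise 0 of 6 passed the test (limma, 3 at an unadjusted p under 0.05). Ifnar1 lay between 8.87 and 9.42 (median 9.25) in interferon-high tumors and between 8.65 and 9.48 (median 9.24) in interferon-low tumors, a difference of 0.02 ± 0.04 (SE). The receptor chain Il10rb, used by the lambda interferons, came closest with 0.18 ± 0.06 (adjusted p = 0.0804).

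Among the kinases and transcription factors, 5 of 13 measured genes rose and none fell (median 0.16), and the 5 were all transcriptional regulators. Stat2 lay between 8.64 and 10.10 (median 9.21) in interferon-high tumors and between 7.58 and 8.51 (median 8.08) in interferon-low tumors, with no overlap and a difference of 1.16 ± 0.06 (adjusted p = 9.1e-31). Irf9, its DNA-binding partner, lay between 9.06 and 9.81 in interferon-high tumors and between 8.16 and 9.05 in interferon-low tumors, again without overlap, and differed by 0.78 ± 0.04. Nlrc5, the transactivator of MHC class I genes, rose 2.01-fold, with overlapping groups. Irf2 and Irf1 rose by 0.28 and 0.22, and Irf1 did not pass with the marker scores as covariates (adjusted p = 0.107). The kinases gave differences of 0.01 for Jak1, 0.14 for Jak2 and less than 0.01 in size for Tyk2, and Stat3 and Irf3 gave 0.02 each, none past the threshold.

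Usp18, the protease that removes ISG15 from proteins and blocks Ifnar2 signaling, showed the largest rise with separate groups. It lay between 9.76 and 11.43 (median 10.45) in interferon-high tumors and between 5.94 and 8.16 (median 7.47) in interferon-low tumors, a difference of 3.14 ± 0.10 (adjusted p = 8.14e-42). Of the 14 negative regulators 8 rose and none fell (median 0.25), and 6 were higher with the marker scores as covariates. Trim30a rose by 2.17 ± 0.12, the galectin gene Lgals9 by 1.40 ± 0.09 and Adar, which edits double-stranded RNA, by 0.78 ± 0.05. The suppressors of cytokine signaling gave smaller values, 0.03 ± 0.04 for Socs1 and 0.11 ± 0.06 for Socs3, and neither passed the test.

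**Figure D2:**
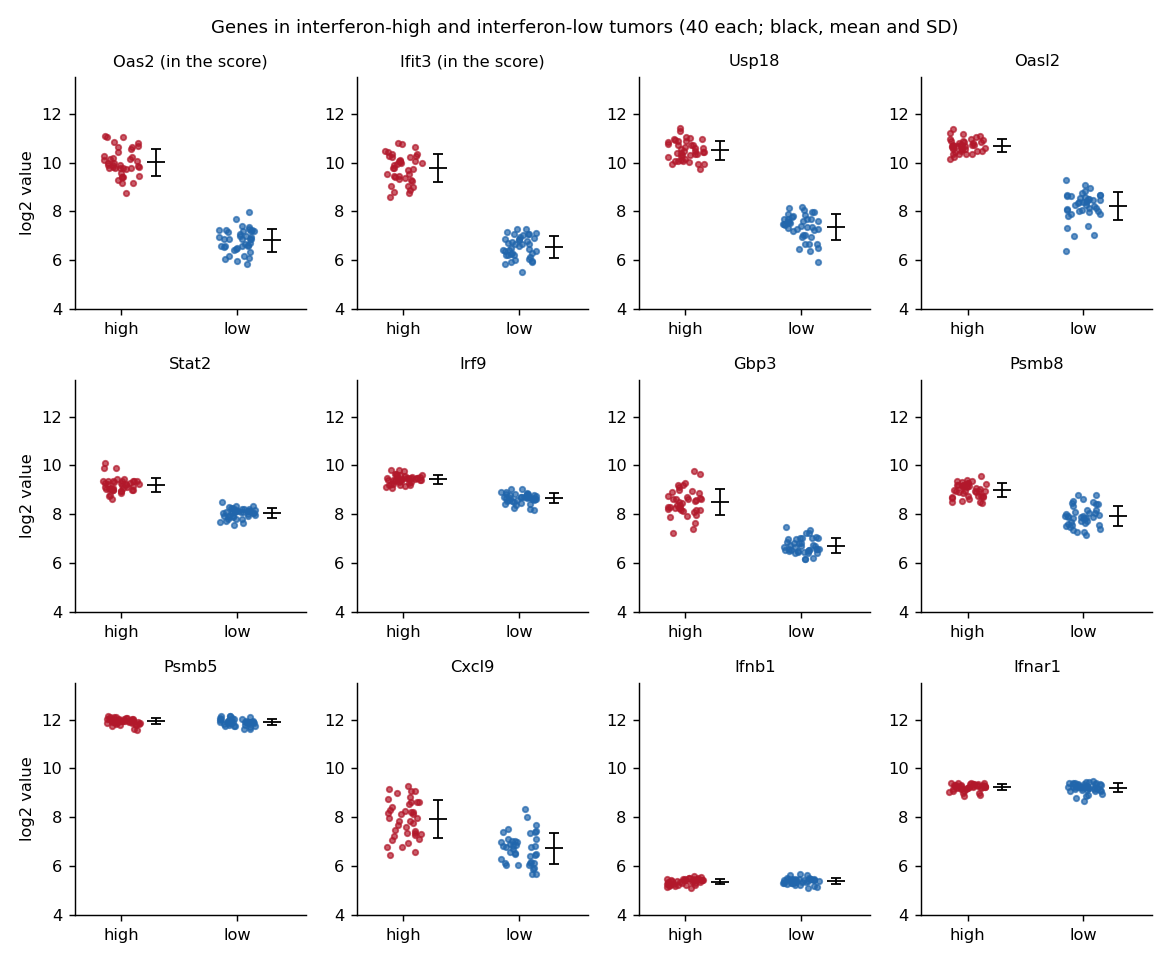
Log2 values of 12 genes in each of the 40 interferon-high tumors (red, left) and 40 interferon-low tumors (blue, right), with the mean and SD in black. Usp18, Oasl2, Stat2 and Irf9 do not overlap between groups, Psmb8 and Cxcl9 overlap in part, and Psmb5, Ifnb1 and Ifnar1 lie at the same height in both groups.

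Most sensors of viral RNA rose, while several adaptors did not pass the test. Of 17 nucleic acid sensors and adaptors 10 rose and none fell (median 0.30), and 7 were higher with the marker scores as covariates. Those lost were Tlr7, an endosomal sensor of single-stranded RNA (adjusted p = 0.82), Tlr9, a sensor of DNA (0.0925), and the kinase gene Tbk1 (0.145). Ddx58, which encodes RIG-I, lay between 10.24 and 11.22 (median 10.66) in interferon-high tumors and between 8.85 and 10.08 (median 9.53) in interferon-low tumors, a difference of 1.17 ± 0.06 without overlap. Its relatives Dhx58 and Ifih1 rose by 1.81 ± 0.09 and 1.27 ± 0.08. Zbp1, a sensor of Z-form nucleic acid that can trigger necroptosis, rose by 1.28 ± 0.08, and the kinase gene Eif2ak2 (PKR) by 0.97 ± 0.06. The adaptors Mavs (-0.01 ± 0.04), Myd88 (0.05 ± 0.05), Ticam1 (0.08 ± 0.06) and Sting1 (0.20 ± 0.08) did not pass the threshold.

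In the OAS family 6 of 10 measured genes rose, and the other 4 lay at or below background. Oasl2 lay between 10.17 and 11.37 (median 10.70) in interferon-high tumors and between 6.37 and 9.27 (median 8.37) in interferon-low tumors, a difference of 2.47 ± 0.10. Oas1a rose by 1.92 ± 0.07, Oas1b by 1.71 ± 0.08 and Oas3 by 1.45 ± 0.09, and Oasl1 rose 2.82-fold. Oasl2, Oas1a, Oas1b and Oasl1 had no overlap between groups. Members of the family are similar in sequence, so that probes may be shared.

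Of 38 other antiviral effectors 31 rose and none fell (median 0.78). Xaf1, a proapoptotic factor, lay between 8.21 and 9.74 in interferon-high tumors and between 5.86 and 7.68 in interferon-low tumors and rose by 2.01 ± 0.10. Rtp4 rose by 1.76 ± 0.10 and Phf11d by 1.67 ± 0.09, both without overlap. The Mx proteins are GTPases that block viral replication, and here Mx1 rose by 1.23 ± 0.10. Mx2 rose by 1.67 ± 0.17 with overlap, between 5.67 and 9.62 in interferon-high tumors and between 4.70 and 6.88 in interferon-low tumors, and 2 interferon-high tumors stood above a gap in its values. Cmpk2, next to Rsad2 in the genome, rose 2.93-fold. The IFITM genes, which restrict viral entry, differed among themselves: Ifitm3 rose by 1.04 ± 0.08 and Ifitm2 by 0.17 ± 0.05, the last not with the marker scores as covariates (adjusted p = 0.188), while Ifitm1 gave -0.27 ± 0.25 (adjusted p = 0.609). The other members that did not pass were Ifi44l, Ifi27l2b, Ifi30, Apobec3, Plscr1 and Lap3.

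All 11 measured genes of ISG15 conjugation and the Parp9 axis rose (median 0.94), and in 5 of them the groups did not overlap. Herc6, the mouse ligase for ISG15, rose by 1.47 ± 0.08, and the E2 enzyme gene Ube2l6 by 1.20 ± 0.07, more than the E1 enzyme gene Uba7 (0.48 ± 0.04). Parp9 lay between 8.74 and 9.38 in interferon-high tumors and between 7.57 and 8.51 in interferon-low tumors. Dtx3l, whose product forms a ubiquitin ligase with Parp9, rose by 0.76 ± 0.05. Parp12 rose by 1.39 ± 0.07 and Parp14 by 1.31 ± 0.07.

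All 12 measured GBP and IRG genes, GTPases of defense against intracellular microbes, rose as well (median 1.19). Iigp1 lay between 6.94 and 9.42 (median 8.12) in interferon-high tumors and between 4.80 and 7.28 (median 6.20) in interferon-low tumors, a difference of 2.01 ± 0.12. Gbp3 rose by 1.78 ± 0.10, Irgm1 by 1.41 ± 0.08 and Gm12250 by 1.36 ± 0.07, the only member of this list without overlap. Gbp8 rose least, by 0.40 ± 0.05. All 6 members with a promoter entry held a GAAA pair. In the ISG15 and Parp9 list, where every gene rose too, 1 of 8 did. The counts were 11 of 31 antiviral effectors, 2 of 11 class I genes and 1 of 4 immunoproteasome genes. With C after the second copy the shares were 66.7% of GBP and IRG genes and 12.5% of ISG15 and Parp9 genes. They were 19.4% of antiviral effectors and 0% of class I and of immunoproteasome genes. In the Ifi200 family of DNA-binding proteins 5 of 8 genes rose (median 0.45; 4 with the marker scores as covariates), led by Ifi203 at 1.22 ± 0.14, and 4 of the 8 had means at or below background.

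In the class I antigen pathway 12 of 15 measured genes rose and none fell (median 0.36). The listed genes H2-K1, H2-D1, H2-L, H2-Q1, H2-Q6, H2-Q7, H2-T22 and H2-T23 were not measured. Tap1, a subunit of the peptide transporter, lay between 9.25 and 10.51 (median 9.70) in interferon-high tumors and between 8.30 and 9.22 (median 8.74) in interferon-low tumors, a difference of 0.98 ± 0.06 without overlap. H2-Q4, a nonclassical class I gene, rose by 0.85 ± 0.08, B2m, the light chain of class I molecules, by 0.59 ± 0.07 and Tap2 by 0.46 ± 0.05. The general chaperones Calr, Canx and Pdia3 were the 3 members that did not pass (0.03, 0.07 and 0.13). Class I genes are polymorphic among the DO founder strains and close in sequence, so probe binding may differ between genomes, and this was not tested.

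All 4 measured genes of the immunoproteasome rose (median 0.53), against 0 of 14 genes of the constitutive proteasome core (limma, 5 at an unadjusted p under 0.05; median 0.05). The catalytic subunit gene Psmb8 lay between 8.46 and 9.57 (median 8.98) in interferon-high tumors and between 7.16 and 8.79 (median 7.90) in interferon-low tumors, a difference of 1.06 ± 0.08. Psmb5, the subunit that Psmb8 replaces, lay between 11.57 and 12.14 (median 11.94) in interferon-high tumors and between 11.61 and 12.14 (median 11.89) in interferon-low tumors, a difference of 0.03 ± 0.03. Psmb9 rose by 0.69 ± 0.06, Psmb10 by 0.38 ± 0.05 and the activator subunit gene Psme1 by 0.26 ± 0.03.

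MHC class II genes, expressed mainly by antigen-presenting cells, overlapped widely. Only Ctss, the protease that processes the class II invariant chain, passed the test among 8 genes (0.46 ± 0.09), and it did not with the marker scores as covariates (adjusted p = 0.226). Cd74, the invariant chain, lay between 9.32 and 12.06 (median 11.30) in interferon-high tumors and between 9.01 and 11.79 (median 11.12) in interferon-low tumors, and differed by 0.22 ± 0.14. Ciita, the class II transactivator, gave 0.02 ± 0.06, where its class I counterpart Nlrc5 rose.

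**Figure D3:**
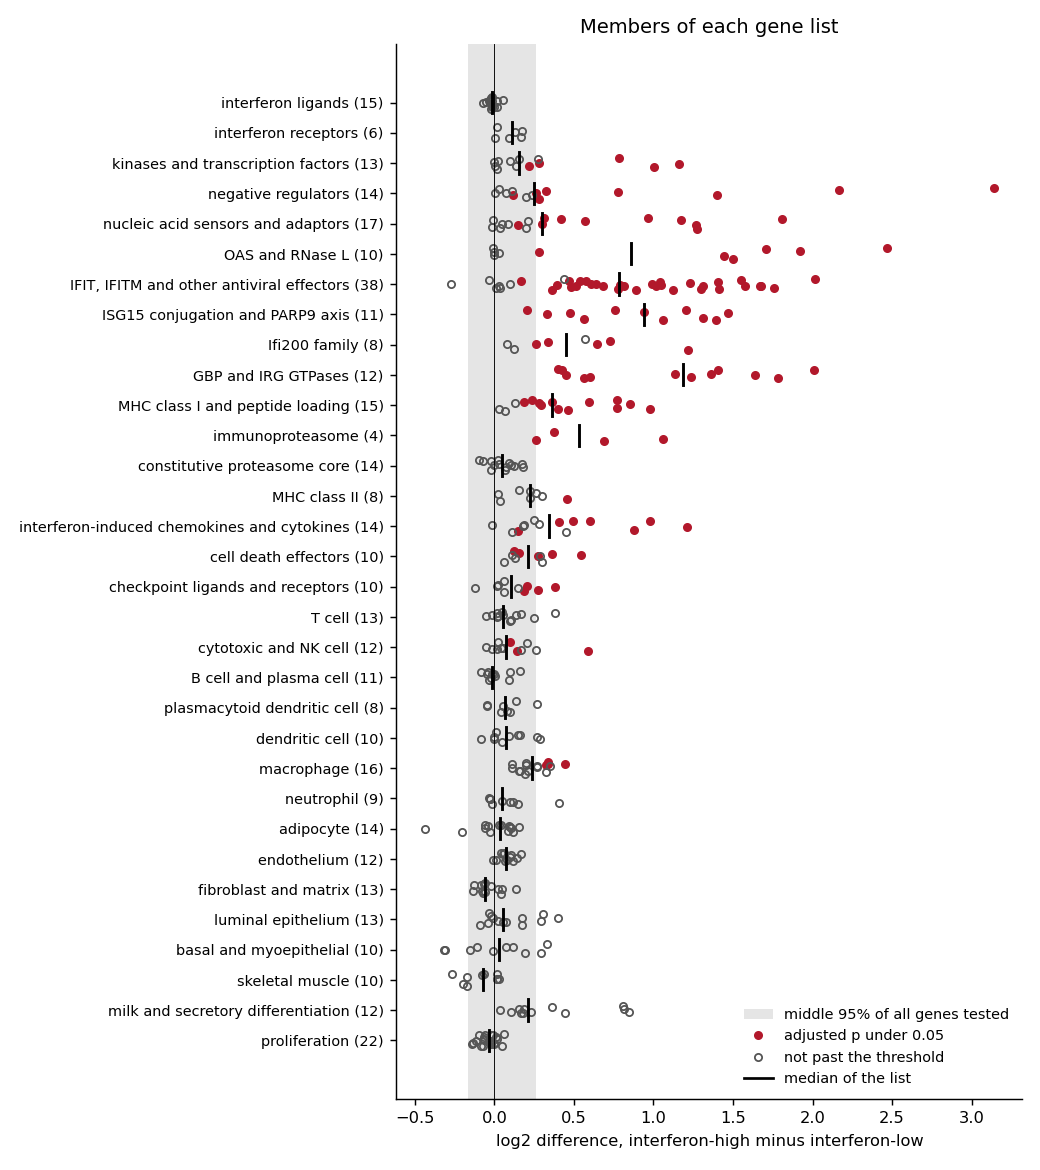
Log2 difference of each list member between interferon-high and interferon-low tumors, with the number of measured genes in parentheses; filled red points passed an adjusted p of 0.05, open points did not, black bars are list medians and the grey band holds the middle 95% of all 18949 genes. All members of the ISG15 and Parp9, GBP and IRG and immunoproteasome lists lie to the right of 0 and passed, whereas no ligand, receptor or constitutive proteasome gene did.

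Among interferon-induced chemokines and cytokines 7 of 14 genes rose (median 0.34), and 6 with the marker scores as covariates. Cxcl9, a ligand of the chemokine receptor Cxcr3 on T cells, lay between 6.44 and 9.28 (median 7.96) in interferon-high tumors. In interferon-low tumors it lay between 5.67 and 8.35 (median 6.77), a difference of 1.21 ± 0.15 with overlap. Ccl5, which draws T cells and macrophages, rose by 0.98 ± 0.11, Cxcl10, another Cxcr3 ligand, by 0.88 ± 0.08 and the death ligand gene Tnfsf10 (TRAIL) by 0.60 ± 0.10. Il18 gave -0.02 ± 0.09, whereas the gene of its soluble inhibitor, Il18bp, rose by 0.49 ± 0.05.

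Changes in cell death and checkpoint genes were smaller. Of 10 cell death genes 5 rose, and 2 with the marker scores as covariates. Mlkl, the effector of necroptosis, rose by 0.54 ± 0.07 and Daxx by 0.27 ± 0.03, while Ripk3, the kinase that acts on Mlkl, gave 0.06 ± 0.05. Of 10 checkpoint genes 4 rose, and 1 with these covariates. Cd274, which encodes PD-L1, lay between 6.11 and 7.30 (median 6.68) in interferon-high tumors and between 6.0 and 7.03 (median 6.30) in interferon-low tumors and rose by 0.38 ± 0.06. Its receptor gene Pdcd1 gave 0.06 ± 0.04.

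Markers of other cell types stand beside these results. None of 13 T cell, 11 B cell and plasma cell, 8 plasmacytoid dendritic cell, 10 dendritic cell or 9 neutrophil genes passed the test, with list medians of 0.05, -0.02, 0.07, 0.07 and 0.05; at an unadjusted p under 0.05 (limma) there were 3, 0, 0, 4 and 3 such genes. Cd3e lay between 6.50 and 10.34 (median 7.34) in interferon-high tumors and between 6.60 and 8.15 (median 7.13) in interferon-low tumors. The T cell score ran from -0.542 to 3.78 (median -0.156) in interferon-high and from -0.719 to 0.819 (median -0.246) in interferon-low tumors. Of 12 cytotoxic and NK cell genes 3 rose, Nkg7 by 0.59 ± 0.15, Ncr1 by 0.14 and Klrk1 by 0.10. Ncr1 and Klrk1 had means at or below background, and only Nkg7 was called with the marker scores as covariates. At an unadjusted p under 0.05 (limma) there were 6 of the 12 genes. One of them was Gzmb at 0.26 ± 0.08 (adjusted p = 0.0639), which passed under 11 of 19 alternatives.

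Macrophage genes leaned the same way as the interferon-stimulated genes. Of 16 markers 4 rose, and 11 had an unadjusted p under 0.05 (limma). All 16 differences were positive, from 0.11 to 0.44, and the list median was 0.24. Within blocks of animal numbers this median was 0.17 to 0.36. The macrophage score ran from -1.88 to 1.81 (median 0.289) in interferon-high tumors and from -2.00 to 1.20 (median -0.399) in interferon-low tumors. Fcgr1, the high affinity IgG receptor gene, itself inducible by interferon gamma, rose by 0.44 ± 0.06, Cd68 by 0.34 ± 0.08, Mpeg1 by 0.34 ± 0.10 and Aif1 by 0.32 ± 0.06, while Csf1r, the receptor that sustains macrophages, gave 0.20 ± 0.10. The macrophage score is made from these same markers, so the fit with the marker scores as covariates says nothing of them. With these covariates, 86.8% of the called genes of the interferon lists were again called higher, among them all 11 genes of ISG15 conjugation and the Parp9 axis, all 12 GBP and IRG genes and 30 of the 38 antiviral effectors.

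No gene passed in the lists of adipocyte (14), endothelium (12), fibroblast and matrix (13), luminal epithelium (13), basal and myoepithelial (10), skeletal muscle (10), milk and secretory differentiation (12) or proliferation (22) genes; 1, 1, 0, 4, 1, 0, 2 and 1 of them had an unadjusted p under 0.05 (limma). The medians of these lists lay between -0.07 and 0.07, apart from the milk list at 0.21. The proliferation score had a median of 0.119 in interferon-high and 0.0479 in interferon-low tumors.

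Outside every list, 34 genes were at least 1.5-fold higher. Ddx60, a helicase that aids RIG-I, lay between 7.06 and 8.90 (median 7.79) in interferon-high tumors and between 4.99 and 6.62 (median 5.69) in interferon-low tumors, a difference of 2.18 ± 0.09 without overlap. Samd9l, an antiviral restriction factor, rose by 1.59 ± 0.11, the long RNA gene AW112010 by 1.05 ± 0.16, Helz2 by 0.88 ± 0.06, Znfx1, an RNA helicase, by 0.66 ± 0.05 and Nmi, a partner of STAT proteins, by 0.63 ± 0.06. Trafd1, a feedback inhibitor of innate signaling, is not among the 34 and rose 1.43-fold (0.52 ± 0.04). Even at this size every interferon-high tumor lay above every interferon-low tumor for Trafd1. Cfb, complement factor B, rose by 0.98 ± 0.18, and Hhipl2, Adm and Ptgs2 by 0.99 ± 0.25, 0.78 ± 0.19 and 0.67 ± 0.18; Ptgs2 did not pass with the marker scores as covariates (adjusted p = 0.201).

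BC018473 had the largest difference, 3.42 ± 0.67 (adjusted p = 0.00025), but of another form. Its values fell at separate levels, with no tumor between 9.01 and 10.55. Above this gap lay 30 of 40 interferon-high, 41 of 79 intermediate and 11 of 40 interferon-low tumors, and both groups held tumors at both levels.

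**Figure D4:**
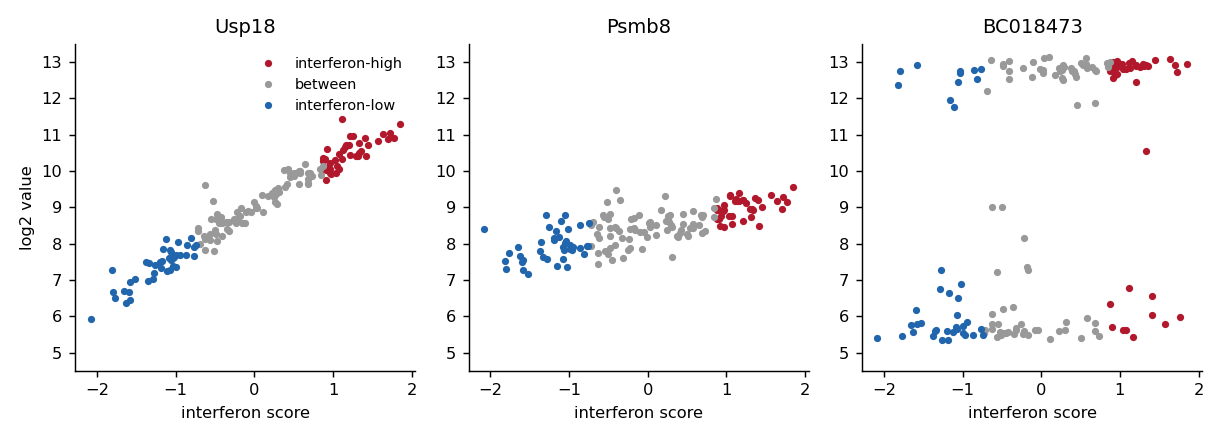
Log2 value of Usp18, Psmb8 and BC018473 against the interferon score in 159 tumors; red, interferon-high, grey, between, blue, interferon-low. Usp18 rises evenly with the score, Psmb8 less steeply and with more scatter, and BC018473 keeps 2 levels at all scores, with 30 red and 11 blue points above the gap.

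Genes that were lower in interferon-high tumors changed little, with a median difference of -0.15. Calml3, a calmodulin-like gene of keratinizing and basal epithelium, lay between 6.31 and 9.26 (median 7.69) in interferon-high tumors and between 6.55 and 11.70 (median 8.23) in interferon-low tumors, a difference of -0.63 ± 0.18 (adjusted p = 0.0261). Foxi3 fell by 0.54 ± 0.16, Cyp17a1, an enzyme of steroid synthesis, by 0.48 ± 0.13, Epb41l3 by 0.47 ± 0.12, Il20rb by 0.39 ± 0.11 and Inhbb, an activin subunit gene, by 0.35 ± 0.10. With the marker scores as covariates Calml3, Il20rb and Inhbb did not pass (adjusted p = 0.113, 0.252 and 0.0564). The groups overlapped for each of these genes. No member of an interferon list fell.

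The 79 tumors between the groups were not used in the comparison. Their slopes were fitted on the same score that set the groups. They describe the same relation over the middle of its range and are no independent test. There, 62 genes had a positive slope on the score at an adjusted p under 0.05 (0.327%), and 0 had a negative slope, where 432 had a negative slope at an unadjusted p under 0.05 (limma; 2 were called after quantile normalization and 1 with the marker scores as covariates). All 62 were among the 432 genes higher in interferon-high tumors, 100% of the first list and 14.4% of the second, and 56 were at least 1.5-fold higher. Ifit3b, whose probes may not tell it from the score gene Ifit3, was among the 62. The slope was positive for 96.2% of the genes at least 1.5-fold higher, for 344 of the 432 genes higher, and for 48% of all genes. Of the genes lower, 91 (63.2%) had a negative slope.

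**Figure D5:**
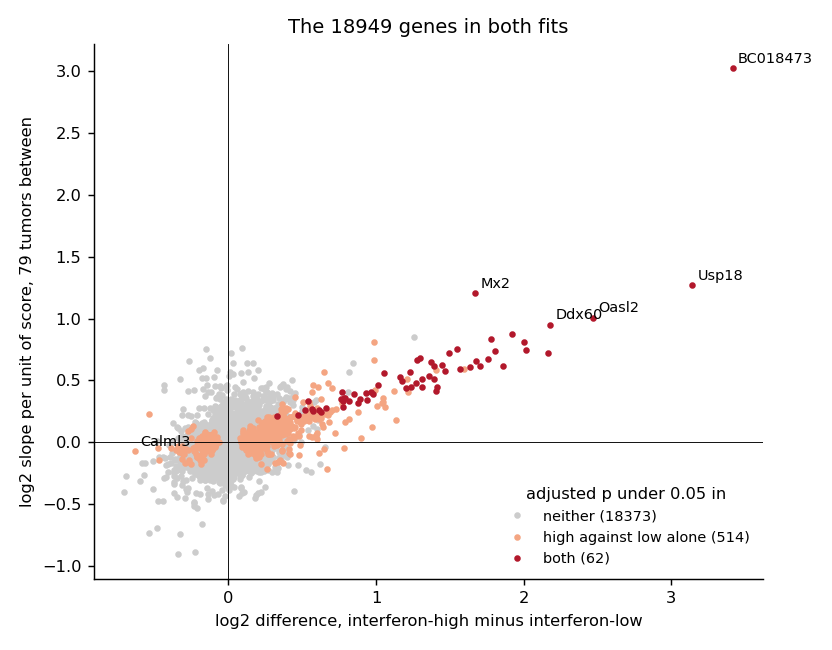
Each of 18949 genes by its log2 difference between interferon-high and interferon-low tumors (x axis) and its log2 slope per unit of the score in the 79 tumors between (y axis). The 62 dark red genes passed an adjusted p of 0.05 in both fits, all with positive values, and none of the genes lower in interferon-high tumors did.

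Usp18 had the steepest slope of the listed genes, 1.27 per unit of score (adjusted p = 2.77e-27), followed by Mx2 at 1.21 and Oasl2 at 1.01. Stat2 and Irf9 had slopes of 0.53 and 0.36. By list, 17 of 38 antiviral effectors, 8 of 11 genes of ISG15 conjugation and the Parp9 axis, 6 of 12 GBP and IRG genes, 5 of 10 OAS genes and 3 of 15 class I genes passed in these tumors. None of the ligands, receptors, immunoproteasome genes, chemokines and cytokines, or markers of any cell type passed. Psmb8 (0.29), Cxcl9 (0.51) and Ccl5 (0.12), all called between the groups, had positive slopes that missed the threshold here. BC018473 had a slope of 3.02 (adjusted p = 0.0388).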

How the data were processed

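Total RNA of 159 DO G7 x PyMT mammary tumors was hybridized to Affymetrix ST arrays, 1 per animal. For their own analysis the authors normalized the data in BRB ArrayTools, with the median array as reference and no correction for batch. The paper does not state whether the deposited log2 values (3.47 to 13.88) hold this step. Their array medians ran from 6.81 to 7.18. Precision is set by the number of arrays. For background correction and the summary of probes no method was named in the labels or the methods read here.

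The score and groups were made from the deposited values. The fits used values from which a constant per array had been taken, its median deviation from the median array (-0.12 to 0.24). Of 20718 probe sets, 18965 had 1 symbol in the platform annotation, 18940 of them matched to RefSeq names; none was named from the 688 with several symbols or the 1065 not listed. Each of 18954 genes was represented by its brightest probe set, by mean over the tumors. With 18965 probe sets for these genes, almost none had a choice. The alternative with the largest variance could therefore hardly differ, and it gave the main counts. The background level is the 95th percentile of the means of 1215 receptor genes, and 4725 genes lay at or below it. limma 3.58.1 in R 4.3.3 fitted interferon-high against interferon-low tumors, and the score as a number in the tumors between; errors are standard errors of the fit, and calls are at an adjusted p under 0.05. Gene lists were described by counts and medians. The fits were tested on simulated data. Low-correlation arrays had a median correlation to the others under the first quartile by over 3 interquartile ranges, and tumors apart on lymphoid scores lay past a gap over 1. Promoters came from RefSeq.

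The members, lists and tests were chosen with earlier results of these data known. Genes named were the score genes, all ligands, receptors, kinases and factors, in each other list up to 6 members with the largest difference and the one with the smallest, the 20 largest rises and falls above background, and the 10 steepest slopes outside every list. Further members of a list, the largest rises and falls below these ranks and genes set beside a named partner were named after their values were seen. Alternatives were the deposited values, quantile normalization, groups from shifted values, the probe set with the largest variance, genes above background, leaving out arrays or tumors as above, blocks of consecutive animal numbers, marker scores as covariates, smaller or larger groups, the slope over all tumors, each score gene left out, trended and robust moderation, and an adjusted p under 0.01. Added after the values were seen were the shared Isg15 probe set in the score and 2 further fits of the tumors between. Metastasis and survival were not used here.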

Additional observations from a re-analysis of the deposited data

How the results depend on the processing

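The counts of higher genes moved by over 1.5 times with the marker scores as covariates (260, against 432) and at an adjusted p under 0.01 (254). The counts of lower genes did so with quantile normalization (319), with blocks of animal numbers (258) and at an adjusted p under 0.01 (26). Under the other alternatives higher genes numbered 305 to 470 and lower genes 97 to 204. Genes at least 1.5-fold higher stayed within 1.5 times the main count in every alternative that gives a fold change, and genes called with a positive slope in the tumors between the groups numbered 62 to 74. Of the 110 named genes called, none changed direction under any of 19 alternatives, and 34 missed the threshold under at least 1. Leaving a gene out of the score kept 36 to 39 of the 40 interferon-high tumors and 37 to 40 of the interferon-low ones. Within blocks of animal numbers the median difference was 0.963 to 1.31 for the GBP and IRG list and 0.632 to 1.11 for the ISG15 and Parp9 list, against -0.0112 to 0.00165 over all genes. With GAAA pairs counted before the start alone, 31.2% of the genes at least 1.5-fold higher held one, and with C after the second copy 26%, against 3.46% and 0.944% of all genes. No paired analysis was possible because each animal gave 1 tumor and the groups share no replicate numbers. Of the genes called, 37 higher and 8 lower had means at or below background.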
